A study of Mus musculus with 12 samples.

Results

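Macrophages are phagocytes: they take up dead cells, debris, microbes and antibody-coated targets. Described here are 37 genes of macrophage identity and phagocytosis, picked by symbol from the 21899 genes of the deposited count table. They were chosen with earlier results of these data known. All 37 were found, and 36 had enough reads to be tested. Expression was measured by RNA sequencing in whole tumours grown from 4T1-LUC cells, a mouse mammary carcinoma line, placed under the skin of the chest and abdominal wall of BALB/c mice, whose age was 4 to 6 weeks. The 12 libraries form 4 groups of 3, and every group carried the tumour and was gavaged each afternoon with 200 µL of liquid. The control group received corn oil alone. The curcumin group received curcumin, a polyphenol from turmeric, at 100 mg/kg in corn oil. The swimming group received corn oil and swam for 30 min, starting 30 min after gavage. The combination group received curcumin at 100 mg/kg and the same swimming. The labels state 30 mice in 5 groups of 5, numbers that do not match each other, and a saline group without tumour is not analysed here. Nothing in them tells whether the 3 libraries of a group are from different mice; the p-values here reflect only how far these libraries spread, which may be technical.

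Monocytes enter a tumour from blood and mature there under Csf1, the growth factor that acts through Csf1r on the macrophage surface. The lineage factor PU.1, encoded by Spi1, switches on much of the myeloid programme in these cells. Mature macrophages recognise prey through Fc receptors for antibody, complement receptors, scavenger receptors, Trem2 with its adaptor Tyrobp, and the TAM receptors Mertk and Axl, which bind apoptotic cells. The engulfed material is met by an oxidative burst from the NADPH oxidase and by lysosomal enzymes. Several of these genes are not private to macrophages: neutrophils share Itgb2, Itgam, Ncf1, Ncf4, Fcer1g and Tyrobp, and tumour or stromal cells can make Csf1, Axl, Apoe and Nos2. In a whole tumour, fewer macrophages and less RNA per macrophage cannot be told apart.

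PU.1 binds a purine-rich element with the core GAGGAA, so the promoters of the members were searched for it. RefSeq windows on GRCm38.p6, 250 bases before to 50 after the start, were at hand for 25 members. GAGGAA or its reverse complement TTCCTC lay in the windows of 15 of these 25 genes (60.0%), against 31.3% of all 27025 genes with a window. The longer GAGGAAGT, or ACTTCCTC, which overlaps the core, lay in 3 of 25 (12%), against 3.69% of all genes. These matches describe letters in a window; they are not binding sites measured in these tumours. The 3 receptors shown have a match just before the start, and all 3 fell both in swimming against curcumin and when swimming was averaged over curcumin. They were picked for having both. Of 9 members that fell in at least 1 of these comparisons, 7 have a window, and 4 of those 7 (Csf1, Fcer1g, C3ar1 and Ncf1) hold no match to the core. Each run is the 120 bases that end at the start, read 5′ to 3′ along the gene, and capitals mark the match: Trem2 at chr17:48346281-48346400 on the plus strand, Fcgr4 at chr1:171018806-171018925 on the plus strand and Fcgr1 at chr3:96293970-96294089 on the minus strand.
Trem2: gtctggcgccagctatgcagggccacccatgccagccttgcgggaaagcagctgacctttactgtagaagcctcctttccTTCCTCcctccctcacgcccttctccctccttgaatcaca
Fcgr4: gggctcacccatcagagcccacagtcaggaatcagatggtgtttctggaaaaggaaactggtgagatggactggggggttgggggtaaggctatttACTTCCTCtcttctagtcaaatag
Fcgr1: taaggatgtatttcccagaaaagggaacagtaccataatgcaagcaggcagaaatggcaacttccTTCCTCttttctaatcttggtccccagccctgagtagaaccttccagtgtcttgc
The Trem2 and Fcgr1 runs hold TTCCTC, the core on the opposite strand. The Fcgr4 run holds the longer form, also on the opposite strand. Spi1 itself, the gene of the factor, ranged from 34.0 to 65.2 CPM (counts relative to library size, scaled between libraries) over the 12 libraries and passed no test.

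Library totals ran from 15069348 to 17278826 counts, and 3 counts in a library, taken as the floor of detection, equal 0.174 to 0.199 CPM. Spread within a group was unequal: the biological coefficient of variation was 6.47% in combination, 12.4% in curcumin, 16.3% in swimming and 26.7% in control. The combination libraries differed from each other by more than counting noise, so they do not look like copies of 1 library; that does not show that they are from separate tumours. Curcumin 2 held the highest value of 28 of the 36 tested members, and swimming 2 held the lowest of 13. Libraries are named here by group and replicate. Tumour epithelial markers summed to between 2403 and 3065 CPM in every library, while the label names only a breast cancer cell type.

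Read per gene length, as FPKM averaged over the 12 libraries, the most abundant members were Apoe (645), the lipid carrier, Lyz2 (347), the macrophage lysozyme, and C1qa (246.9), a chain of the complement recognition protein C1q. C1qb followed at 167.6 and C1qc at 90.9. The defining surface genes were present in every library: Csf1r ranged from 106 to 249 CPM, and Adgre1, which encodes the F4/80 antigen, from 14.1 to 39.7 CPM. At the other end stood Trem2 (3.72), Cd163 (3.55), a haemoglobin scavenger receptor, and Gpnmb (3.11), a glycoprotein of lipid-laden phagocytes. Marco, a scavenger receptor of resident macrophages, was almost absent. It had 22 counts in curcumin 2, 9 in curcumin 3, 2 in control 1 and 0 in the other 9 libraries. It was therefore not tested, and no fold is given for it.

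**Figure D1:**
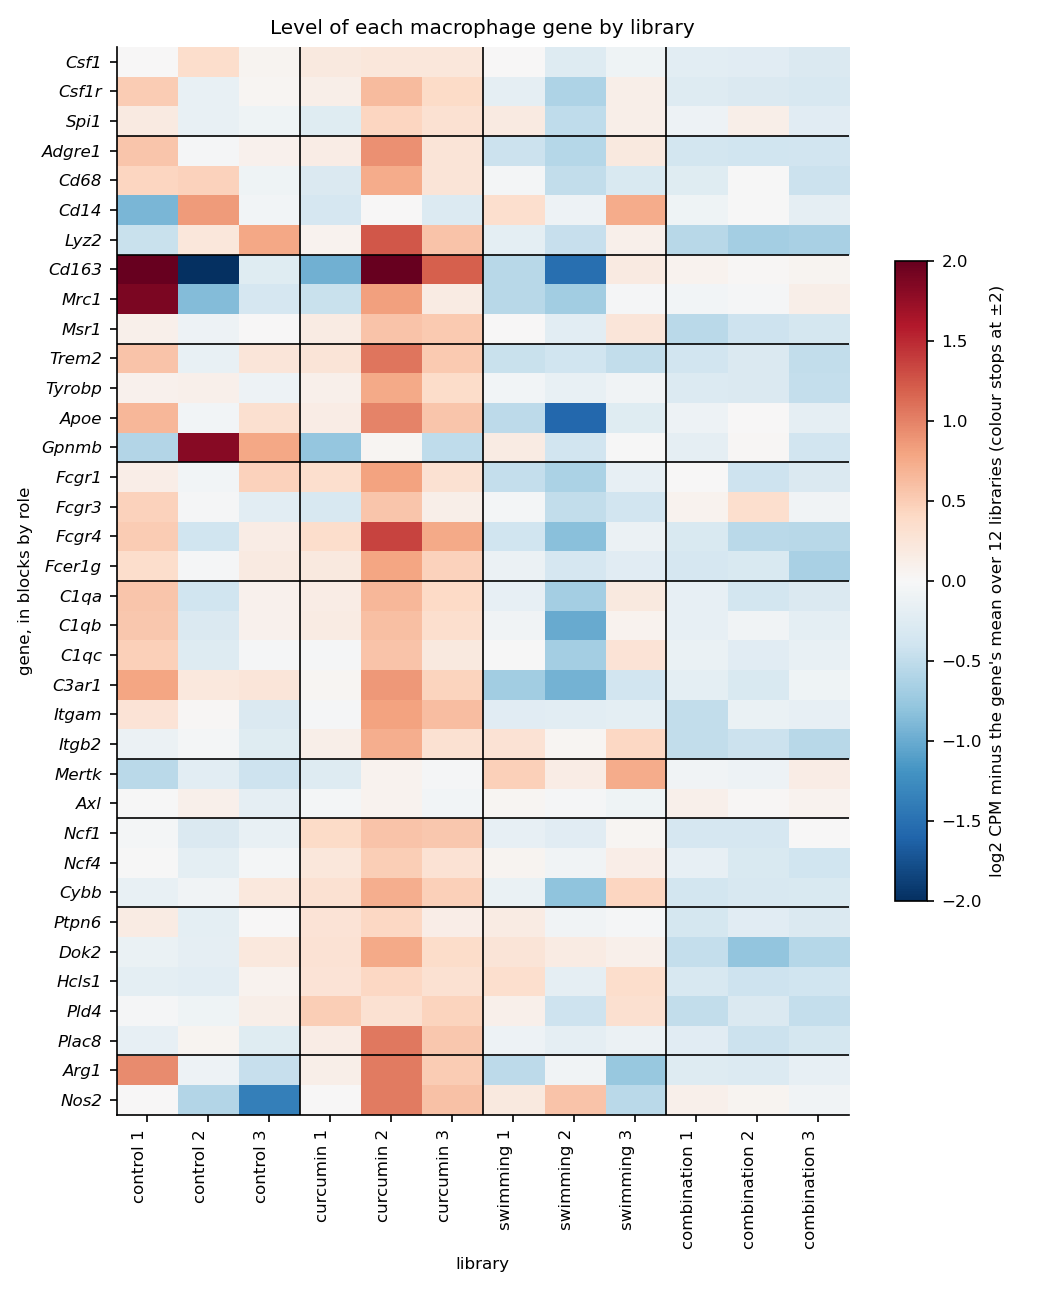
Log2 CPM of the 36 tested members (rows, by role) in the 12 libraries (columns, control to combination), each gene centred on its mean over libraries and colours limited to 2 log2 units either way. Curcumin 2 is the library where most members are high, the 3 combination libraries look alike, and Mertk has its highest values in swimming.

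Differences between groups are log2 fold changes from edgeR's quasi-likelihood test on all 12 libraries. The standard error beside each was derived from that test, as the absolute log2 fold change over the square root of its F value. A gene was called, and is said to have risen or fallen, at a Benjamini-Hochberg adjusted p of 0.05 or below over 13638 genes. Over 9 comparisons, 17 of the 36 tested members were called at least once, as were 12.6% of all genes tested. Comparisons that name the same group share its libraries and are not independent of each other. Because the members were chosen with earlier results known, their shares and medians beside those of all genes are description only. Members also varied together, with 28 of 36 highest in curcumin 2, so counts of negative values are not counts of separate observations.

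The most members were called between the tumours of mice given curcumin with swimming and those of mice given curcumin alone. Dok2, Trem2 and Plac8 were 2.14-fold, 2.08-fold and 1.96-fold lower in the combination tumours. In all, 12 of 36 members fell: Msr1, Trem2, Tyrobp, Fcer1g, Itgb2, Ncf1, Ncf4, Ptpn6, Dok2, Hcls1, Pld4 and Plac8. None rose. Of all genes tested, 0.491% fell in this comparison. Values were negative for 32 of 36 members, and the median over members was -0.70 against -0.01 over all genes. The 4 positive values, none of which passed, were those of Gpnmb (0.20), Cd14 (0.10), Axl (0.07) and Mertk (0.06). The count of 12 became 0 without any 1 of the 3 combination libraries or without curcumin 2, and 1 without curcumin 3. Over all genes tested, calls dropped from 116 to 5, 3 and 3 without combination 1, 2 and 3. They were 3 without curcumin 2 and 8 without curcumin 3. The count of members also became 0 with the combination libraries summed, where 0 genes were called, 4 with replicate number as a block and 21 with DESeq2. Limma voom called 23 members and the fit of only these groups 21. Of all 13638 genes, the block called 28, DESeq2 700 and limma voom 1933. The fit of only these groups called 2121 of 13277 genes.

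In swimming alone, set against curcumin alone, Fcgr4, C3ar1 and Trem2 were 2.46-fold, 2.22-fold and 2.17-fold lower, and Fcgr1, Fcer1g and Ncf1 fell as well. Of all genes tested, 0.902% fell in this comparison, and 6 of 36 members did. Values were negative for 33 of 36 members, with a median of -0.58 against -0.02 over all genes. Apoe had a value of -1.28 ± 0.32 and an adjusted p of 0.063. Trem2, Fcer1g and Ncf1 are the 3 genes that fell both here and in the combination against curcumin, comparisons that share the curcumin libraries. The count of 6 became 0 without curcumin 2, curcumin 3, swimming 1, combination 1 or combination 2. Over all genes tested, calls dropped from 243 to 14, 11, 9, 67 and 67 in the same order. The count of members became 1 without combination 3 and 2, 1 of them lower, without swimming 2, with 65 and 268 genes called. Without control 2 it became 13, 12 of them lower, with 1537 of 13820 genes called. DESeq2 called 12 members, 11 of them lower, limma voom 11, 10 of them lower, and the replicate block 1. Of all 13638 genes, these fits called 1032, 907 and 57 in either direction.

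Averaged over both arms, with 6 libraries that swam against 6 that did not, 8 members fell: Csf1, Fcgr1, Trem2, Msr1, Tyrobp, C3ar1, Fcer1g and Fcgr4. The average can hide unequal arms, and none of the 8 was called in swimming against control. There Msr1 stood at 0.02 and Tyrobp at -0.12, while both fell in combination against curcumin. Csf1, Fcgr1, Trem2, C3ar1, Fcer1g and Fcgr4 ran from -1.10 to -0.26 in swimming against control. Of all genes tested, 1.09% fell in this comparison. The 6 and 6 libraries did not overlap for Csf1, Trem2, Fcer1g and C3ar1. The share of all genes without such overlap was not computed, so this is description only. Values were negative for 32 of 36 members, with a median of -0.46 against -0.01 over all genes. Mertk was the largest value in the other direction, at 0.46 ± 0.11 with an adjusted p of 0.051. The count of 8 became 0 without curcumin 3, swimming 1 or any 1 combination library, 3 without curcumin 2 and 4 without control 3. Over all genes tested, calls dropped from 277 to 18 and 7 without curcumin 3 and swimming 1. They were 30, 6 and 11 without combination 1, 2 and 3, 49 without curcumin 2 and 129 without control 3. The count of members rose to 16 without control 2, 15 of them lower, with 976 of 13820 genes called. Without swimming 3 it was 13, all lower, with 345 of 13814 genes called. DESeq2 called 20 members, 19 of them lower, and 952 of all 13638 genes. The replicate block called 2 members and 52 genes. Summing the combination libraries, a setting chosen after seeing the data, left 0 members and 0 of 14155 genes called.

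In combination against control, Csf1 and Dok2 fell, 2 of 36, while 2.43% of all genes tested fell in this comparison. Fcer1g stood just outside the threshold, at -0.60 ± 0.16 with an adjusted p of 0.0502. Values were negative for 32 of 36 members, with a median of -0.40. The count of 2 became 0 without control 3, curcumin 3, swimming 1 or any 1 combination library, 1 without curcumin 1 and 4 without control 1. Without curcumin 1 neither Csf1 nor Dok2 was called, and the 1 member called was Fcer1g. DESeq2 called 6, and RLE scaling and the fit without a filter 1 each. The replicate block, limma voom, the fit of only these groups and the summed combination libraries called 0 members. They called 220, 403, 132 and 0 genes. Of all genes tested, DESeq2 called 1656 of 13638, RLE scaling 627 of 13638 and the fit without a filter 565 of 17495. With control 1 left out, the fit called 2182 of 13820 genes.

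In swimming against control, Mertk was the 1 member called: it rose 1.81-fold, and 0.154% of all genes tested rose in this comparison. The other 35 tested members were not called, and 24 of the 36 values were negative, with a median of -0.24. C3ar1 came closest, at -1.10 ± 0.22 with an adjusted p of 0.068. The Mertk call was lost without control 1, control 3, any 1 curcumin library, swimming 1, swimming 3 or any 1 combination library. Over all genes tested, calls dropped from 42 to 9 and 8 without control 1 and control 3. They were 18, 26 and 8 without curcumin 1, 2 and 3, and 0 and 24 without swimming 1 and swimming 3. Without combination 1, 2 and 3 they were 5, 16 and 5. Without curcumin 2 the 1 member called was C3ar1, which fell. Without control 2 the count of members called was 4, 3 of them lower, with 603 of 13820 genes called. DESeq2 called 2 members, 1 of them lower, and 318 of all 13638 genes. Limma voom, the replicate block and the fit of only these groups called 0 members. They called 0, 4 and 0 genes.

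In curcumin against control edgeR called 0 members, and 0% of all genes tested (0 of 13638) were called in either direction. Values were positive for 32 of 36 members, with a median of 0.31 against 0.00 over all genes. An unadjusted p under 0.05 was found for 14 members, beside 1490 of all 13638 genes. The highest and lowest values were 1.15 ± 0.36 for Nos2, inducible nitric oxide synthase, with an adjusted p of 0.36, and -1.36 ± 0.47 for Gpnmb, with an adjusted p of 0.37. DESeq2 called 2 members here and 87 of all 13638 genes, and limma voom 0 members.

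When curcumin was added to swimming, Itgb2 was 1.68-fold lower in combination than in swimming and Dok2 1.73-fold lower, and Hcls1 and Msr1 also fell. That makes 4 of 36 members, while 3.15% of all genes tested fell in this comparison. Msr1 lay just inside the threshold, with an adjusted p of 0.0496. The count of 4 became 0 without swimming 1 or any 1 combination library, 1 without swimming 3, 2 without curcumin 3 and 7 without control 2. Over all genes tested, calls dropped from 908 to 109 without swimming 1. They were 89, 31 and 81 without combination 1, 2 and 3, 161 without swimming 3 and 467 without curcumin 3. With control 2 left out, the fit called 2697 of 13820 genes. Limma voom called 8 members and 2797 of all 13638 genes. The fit of only these groups called 7 members, 6 of them lower, and 2707 of 13209 genes. Summing the combination libraries left 0 members and 0 of 14155 genes called.

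Averaged over swimming, curcumin called 0 members with edgeR, although 6.49% of all genes tested were called in either direction. At an unadjusted p under 0.05 there were 2 members, beside 3911 of all 13638 genes. DESeq2 called 1 member and 1989 of all genes, and limma voom 0 members. The values for members ranged from -0.74 for Gpnmb to 0.52 for Nos2. Leaving out control 1 gave 2 calls among the members, 1 of them lower, and 2595 among 13820 genes.

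The interaction asks whether swimming acted differently with curcumin than without it. Itgb2 and Dok2 were called, with the effect of swimming lower under curcumin by 1.28 and 1.30 log2 units. That is 2 of 36 members, while 0.088% of all genes tested were called in this direction. The count of 2 became 0 without curcumin 3, swimming 1, swimming 3 or any 1 combination library, 1 without control 1, control 3 or curcumin 2, 6 without swimming 2 and 7 without control 2. Over all genes tested, calls dropped from 34 to 1, 0 and 17 without curcumin 3, swimming 1 and swimming 3. They were 1 without any 1 combination library, and 31, 22 and 6 without control 1, control 3 and curcumin 2. With swimming 2 left out, 97 of 13840 genes were called, and with control 2 left out 455 of 13820. DESeq2 called 7 members, the fit without a filter 4, and the replicate block 0. The summed combination libraries, chosen after seeing the data, also gave 0. Of all genes tested, DESeq2 called 217 of 13638, the fit without a filter 44 of 17495, the replicate block 11 and the summed libraries 0.

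**Figure D2:**
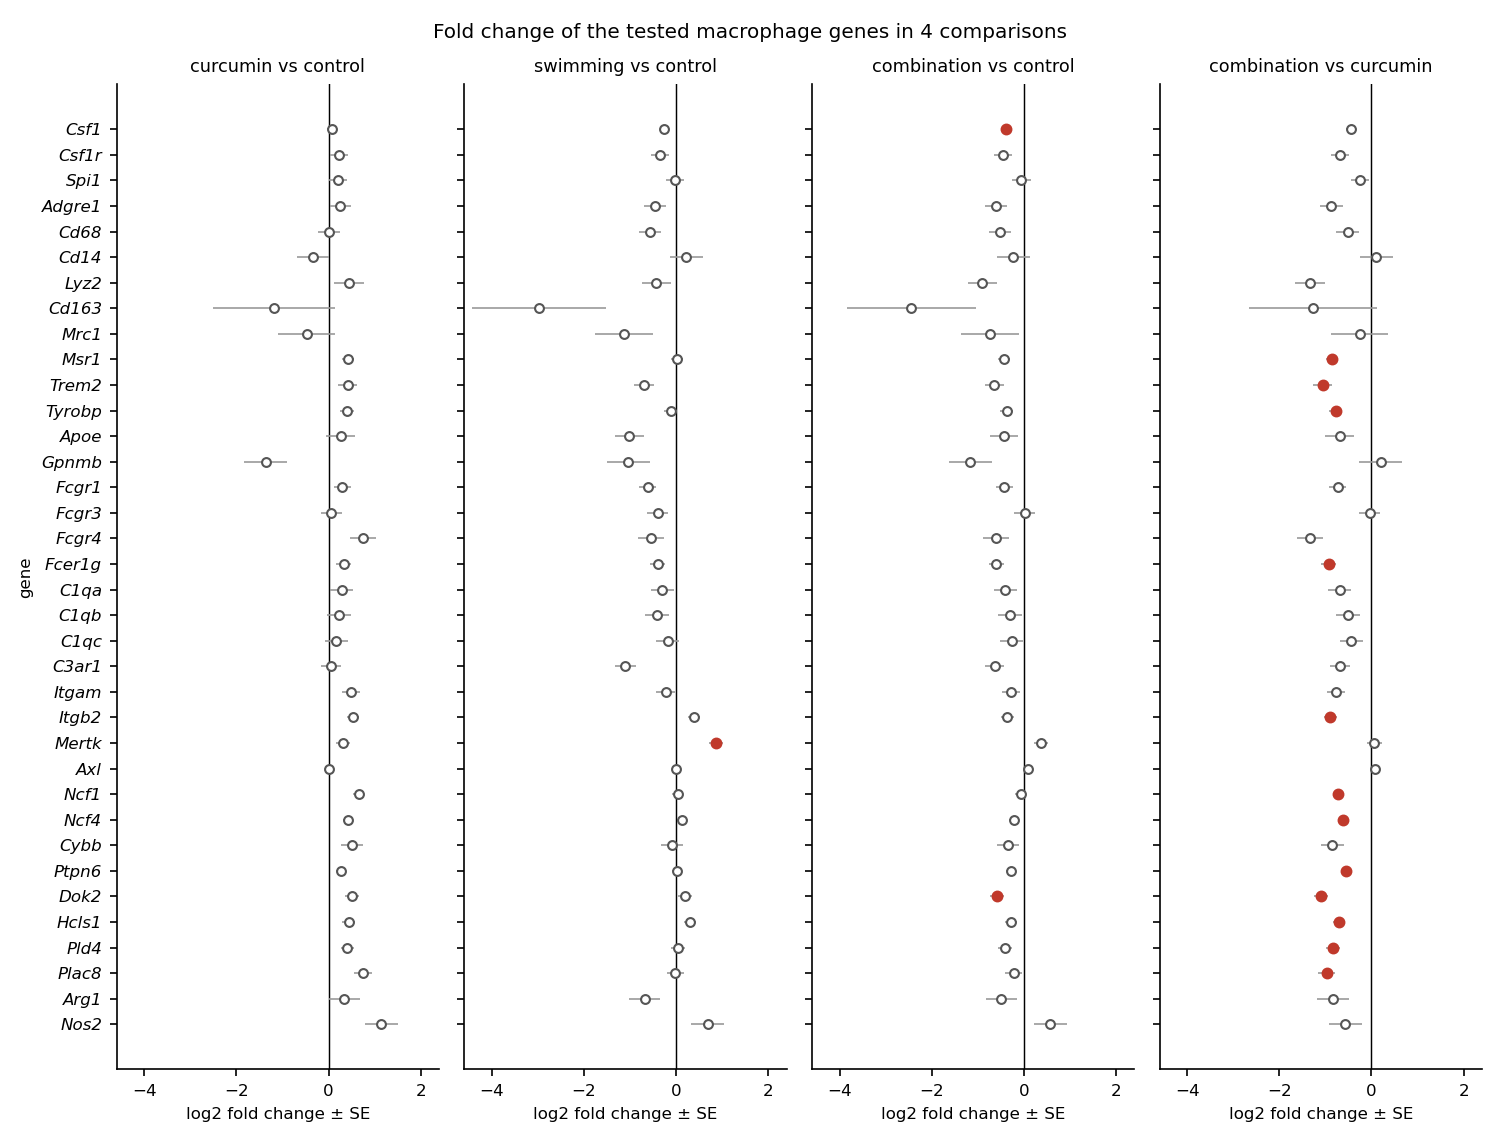
Log2 fold changes of the 36 tested members (rows, by role) with their standard errors, in 4 comparisons: curcumin, swimming and combination against control, and combination against curcumin. Filled points passed an adjusted p of 0.05, open points did not; 32 of 36 values lie right of 0 in curcumin against control, 32 of 36 lie left of 0 in combination against curcumin, and Mertk is the 1 filled point in swimming against control.

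Csf1 (ENSMUSG00000014599, chr3:107648364-107667785 on the build of the deposited table), the growth factor that keeps macrophages alive, read 209, 265 and 214 CPM in control and 236, 242 and 243 CPM in curcumin. With swimming it read 208, 173 and 195 CPM, and in combination 179, 176 and 170 CPM. Every library of a mouse that swam lay below every library of a mouse that did not. The averaged difference was -0.36 ± 0.07 with an adjusted p of 0.026, and combination stood at -0.39 ± 0.10 against control (adjusted p = 0.044). Its receptor Csf1r averaged 180.5 ± 44.2 CPM in control and 211.9 ± 37.0 in curcumin, with 141 ± 34.8 in swimming and 132.3 ± 2.62 in combination (SD, n = 3). Its averaged difference of -0.52 ± 0.14 did not pass (adjusted p = 0.076).

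None of the 4 genes of surface and lysosomal identity was called in any comparison. The member of smallest p among them when swimming was averaged over curcumin was Adgre1. It read 30.9, 20.5 and 22.3 CPM in control, 23.4, 39.7 and 25.1 in curcumin, 15.5, 14.1 and 24.1 in swimming and 16.3, 15.9 and 16.1 in combination. All combination values lay below all control and curcumin values, while swimming 3 lay within the range of control. The averaged effect of swimming on Adgre1 was -0.66 ± 0.17 with an adjusted p of 0.064. Lyz2 averaged 678.7 ± 281 CPM in curcumin and 268.1 ± 12.5 in combination (SD, n = 3), a difference of -1.34 ± 0.32 with an adjusted p of 0.080. Lyz2 has a close copy, Lyz1, and how shared reads were counted is not given in the sources used here. Cd68, a lysosomal glycoprotein, varied most within curcumin, from 66.0 to 135 CPM, and Cd14, a co-receptor for lipopolysaccharide, within control, from 39.0 to 133 CPM.

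Among scavenger receptors, Msr1 (ENSMUSG00000025044, chr8:40034726-40095714), which takes up modified lipoproteins, gave the tightest values. It read 161, 140 and 151 CPM in control, 168, 223 and 216 in curcumin, 151, 130 and 177 in swimming and 104, 113 and 117 in combination. The combination group lay below the other 3 groups with no overlap. The differences were -0.86 ± 0.13 from curcumin (adjusted p = 0.015) and -0.45 ± 0.13 from swimming. Cd163 and Mrc1, described because of their spread after their values were seen, were set by single libraries. Cd163 read 125, 0.237 and 6.54 CPM in the 3 controls, that is 2060, 4 and 112 counts, and Mrc1 read 598, 88.0 and 128 CPM. In combination the same genes were even, at 8.18, 7.93 and 8.09 CPM for Cd163 and 156, 159 and 176 CPM for Mrc1. With such controls the swimming value of -2.97 ± 1.45 for Cd163 had an adjusted p of 0.43. Mrc1 in swimming against control stood at -1.14 ± 0.63 with an adjusted p of 0.49.

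**Figure D3:**
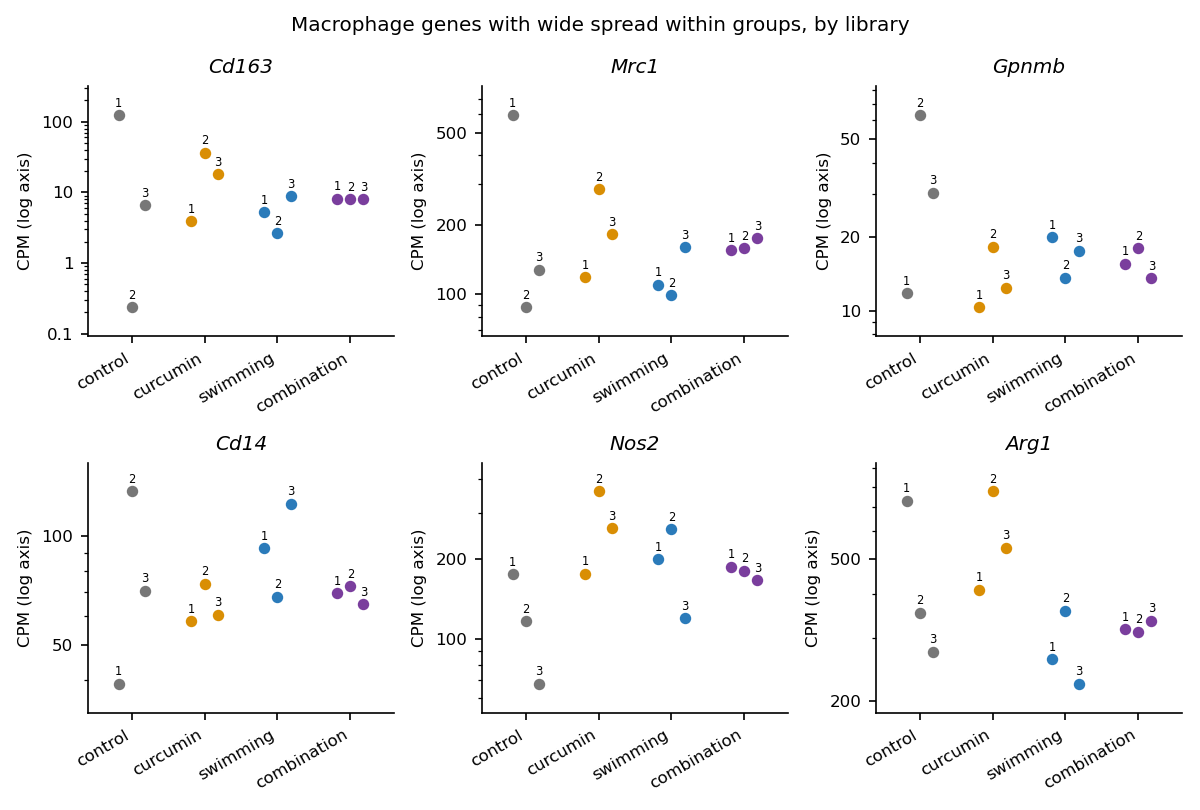
CPM on a log axis of 6 members with wide spread within groups, chosen after their values were seen; points are single libraries labelled by replicate, with no mean drawn. Control 1 carries the highest Cd163 and Mrc1, control 2 the highest Gpnmb and Cd14, and the combination libraries lie close together in each panel.

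Trem2 (ENSMUSG00000023992, chr17:48653429-48661175), the lipid-sensing receptor whose promoter is shown above, read 25.5, 15.4 and 20.2 CPM in control and 20.6, 36.3 and 24.8 in curcumin. In swimming it read 12.5, 13.0 and 12.1 CPM and in combination 13.1, 14.0 and 12.1 CPM. The 6 libraries with swimming lay between 12.1 and 14.0 CPM, and the lowest without swimming was 15.4 CPM. The averaged difference was -0.88 ± 0.15 (adjusted p = 0.022), with -1.06 ± 0.21 in combination against curcumin and -1.12 ± 0.21 in swimming against curcumin. Tyrobp, the adaptor that carries the Trem2 signal through its ITAM motif, read 30.1, 30.3 and 26.3 CPM in control, 30.3, 48.1 and 36.6 in curcumin, 27.2, 25.6 and 27.0 in swimming and 23.4, 23.2 and 20.4 in combination. Swimming overlapped control in Tyrobp, while combination lay below all other libraries. Its averaged difference was -0.45 ± 0.10 with an adjusted p of 0.045. Apoe averaged 1596 ± 393 CPM in control and 1917 ± 556 in curcumin, with 786.7 ± 327 in swimming and 1186 ± 79.0 in combination (SD, n = 3). Swimming 2 was the lowest Apoe library, at 425 CPM, and the averaged difference of -0.86 ± 0.22 had an adjusted p of 0.071. Gpnmb did not follow Trem2: control 2 held 63.0 CPM, and all 9 treated libraries lay between 10.3 and 19.9 CPM.

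Of the 4 Fc receptor genes, 3 fell with swimming when averaged. Fcgr1, the high-affinity receptor for IgG, read 25.9, 22.6 and 32.5 CPM in control, 29.6, 41.1 and 29.2 in curcumin, 16.8, 15.1 and 21.0 in swimming and 23.6, 17.6 and 19.1 in combination. Its averaged difference was -0.67 ± 0.13 (adjusted p = 0.026), with combination 1 inside the control range. Fcgr4 (ENSMUSG00000059089, chr1:170846489-170857330), an activating receptor for IgG2a and IgG2b, read 47.9, 25.6 and 37.3 CPM in control, 43.1, 85.7 and 57.2 in curcumin, 25.6, 18.8 and 31.1 in swimming and 27.3, 23.0 and 22.9 in combination. The curcumin libraries of Fcgr4 lay above all swimming and combination libraries. Fcgr4 was at -1.30 ± 0.28 in swimming against curcumin (adjusted p = 0.047) and -1.34 ± 0.28 in combination against curcumin, where it just missed (adjusted p = 0.055). Fcer1g, the signalling chain shared by the activating Fc receptors, read 29.8, 23.1 and 26.4 CPM in control, 26.8, 40.5 and 32.4 in curcumin, 21.6, 18.6 and 19.9 in swimming and 18.6, 19.0 and 14.9 in combination. All 6 libraries with swimming lay below all 6 without, and the averaged difference was -0.66 ± 0.11 (adjusted p = 0.022). The low-affinity receptor Fcgr3 was called nowhere, and it averaged 92.7 ± 22.8 CPM in control and 93.8 ± 13.3 in combination (SD, n = 3).

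Of the 6 complement genes, C3ar1 and Itgb2 were called in at least 1 comparison. The 3 C1q chains, which tag debris for uptake, were not called in any comparison, and in combination against curcumin they stood at -0.69 ± 0.25, -0.51 ± 0.26 and -0.44 ± 0.24 for C1qa, C1qb and C1qc. C3ar1 (ENSMUSG00000040552, chr6:122824097-122833120), the receptor for the anaphylatoxin C3a, read 110, 73.9 and 75.6 CPM in control, 65.8, 116 and 86.9 in curcumin, 39.5, 32.9 and 48.7 in swimming and 55.9, 51.4 and 60.0 in combination. The highest library with swimming, at 60.0 CPM, lay below the lowest without, at 65.8 CPM. Its averaged difference was -0.89 ± 0.15 with an adjusted p of 0.022. Itgb2 (ENSMUSG00000000290, chr10:77366086-77401542), the CD18 chain of the leukocyte integrins, read 188, 197 and 171 CPM in control, 219, 334 and 250 in curcumin, 247, 208 and 271 in swimming and 144, 150 and 139 in combination. Either treatment alone left Itgb2 above all controls, and the combination left it below all controls. Neither single treatment passed against control, with 0.53 ± 0.14 for curcumin (adjusted p = 0.28) and 0.39 ± 0.14 for swimming (adjusted p = 0.27). Combination was lower than curcumin by -0.89 ± 0.14 (adjusted p = 0.019) and than swimming by -0.75 ± 0.14 (adjusted p = 0.014). Itgam, the CD11b partner of Itgb2 in complement receptor 3, averaged 20.8 ± 3.99, 29.4 ± 8.30, 17.8 ± 0.166 and 17.2 ± 2.26 CPM in control, curcumin, swimming and combination (SD, n = 3) and was not called.

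Mertk (ENSMUSG00000014361, chr2:128540876-128644814), a receptor through which macrophages clear apoptotic cells, was the 1 member called in swimming against control. It read 19.0, 23.9 and 20.7 CPM in control, 23.1, 28.9 and 27.1 in curcumin, 38.5, 30.4 and 46.4 in swimming and 26.3, 25.7 and 30.6 in combination. All 3 swimming libraries lay above all control and curcumin libraries, and swimming 2, at 30.4 CPM, overlapped combination. The rise over control was 0.86 ± 0.16 (adjusted p = 0.041), and combination stood between, at 0.38 ± 0.16 over control (adjusted p = 0.14). Axl, the other TAM receptor, averaged 739.7 ± 70.7, 750.6 ± 35.1, 742 ± 30.9 and 790.1 ± 22.7 CPM in the same order (SD, n = 3). No Axl difference exceeded 0.10 ± 0.09, seen in combination against control (adjusted p = 0.50).

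**Figure D4:**
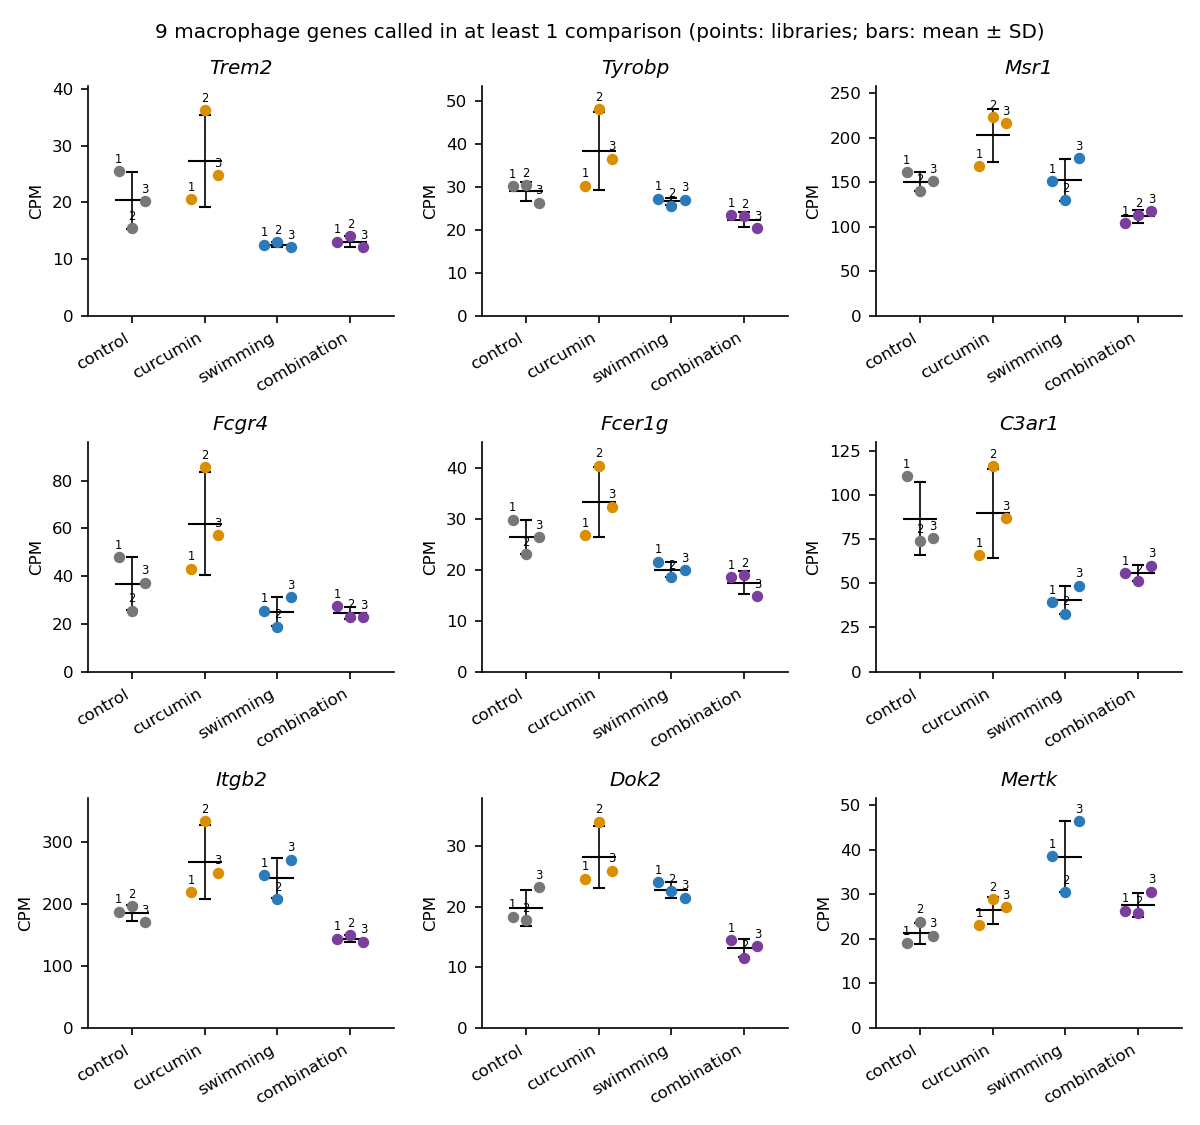
CPM by library (points, labelled by replicate) with the mean and SD of each group of 3 for 9 members called in at least 1 comparison. Trem2, C3ar1 and Fcer1g are lower in both groups that swam, Itgb2 and Dok2 are lowest in combination, and Mertk is highest in swimming.

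Of the 3 oxidase members, Ncf1 and Ncf4 were called in at least 1 comparison, and neither passed in curcumin against control. Ncf1, which encodes p47phox, read 41.7, 34.8 and 38.7 CPM in control, 55.5, 63.6 and 62.3 in curcumin, 38.0, 36.5 and 43.6 in swimming and 33.9, 33.7 and 42.7 in combination. Every curcumin library exceeded every other library, by a gap from 43.6 to 55.5 CPM. The rise over control of 0.66 ± 0.12 did not pass over all genes (adjusted p = 0.14), whereas swimming and combination were lower than curcumin by -0.62 ± 0.12 (adjusted p = 0.030) and -0.72 ± 0.12 (adjusted p = 0.025). Ncf4, which encodes p40phox, read 39.1, 34.1 and 37.9 CPM in control, 45.8, 55.0 and 47.7 in curcumin, 40.5, 37.4 and 43.1 in swimming and 34.8, 31.8 and 29.6 in combination. Its curcumin libraries were again the highest, and combination was lower than curcumin by -0.63 ± 0.11 (adjusted p = 0.025). Cybb, the membrane catalytic subunit gp91phox, had its lowest library in swimming 2, at 57.1 CPM, and its highest in curcumin 2, at 165 CPM, and was not called.

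The 5 signalling and other haematopoietic genes all fell in combination against curcumin. Dok2 (ENSMUSG00000022102, chr14:71003476-71015935), an adaptor that restrains tyrosine kinase signalling, read 18.4, 17.8 and 23.3 CPM in control, 24.7, 34.0 and 26.0 in curcumin, 24.1, 22.6 and 21.5 in swimming and 14.5, 11.6 and 13.5 in combination. The combination libraries lay below all others, and the difference from curcumin was -1.10 ± 0.15 (adjusted p = 0.013), from swimming -0.79 ± 0.15 (adjusted p = 0.017) and from control -0.59 ± 0.15 (adjusted p = 0.048). Hcls1, a cortactin-like actin regulator of blood cells, read 45.3, 44.8 and 54.8 CPM in control, 62.7, 69.1 and 64.1 in curcumin, 65.9, 45.8 and 66.4 in swimming and 41.5, 39.2 and 39.3 in combination. It too was lowest in the combination libraries, by -0.71 ± 0.13 from curcumin and -0.57 ± 0.13 from swimming (adjusted p = 0.031 and 0.029). Ptpn6, the phosphatase SHP-1 of inhibitory receptors, read 72.5, 56.6 and 65.2 CPM in control, 78.5, 85.9 and 70.7 in curcumin, 72.2, 61.6 and 63.8 in swimming and 50.9, 55.5 and 53.2 in combination. All combination libraries lay below the other 9, and the difference from curcumin was -0.56 ± 0.11 (adjusted p = 0.037). Pld4, an endolysosomal exonuclease, read 52.0, 49.5 and 57.0 CPM in control, 73.8, 64.8 and 72.0 in curcumin, 56.2, 39.7 and 66.1 in swimming and 37.2, 43.3 and 38.0 in combination. The 3 swimming libraries of Pld4 reached into both the combination and the curcumin range, and combination was lower than curcumin by -0.83 ± 0.15 (adjusted p = 0.027). Plac8, a cysteine-rich leukocyte protein, read 13.9, 16.2 and 13.2 CPM in control, 17.4, 32.7 and 22.8 in curcumin, 14.5, 13.8 and 14.4 in swimming and 13.4, 11.6 and 12.2 in combination. Curcumin stood above all other Plac8 libraries, with combination at -0.97 ± 0.19 from it (adjusted p = 0.037). Dok2, Ncf1, Itgam and Csf1r overlap another gene of the table, and since the strand setting of the counting is not given in the sources used here, their reads could include those of the overlapping gene.

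The arginine-consuming enzymes, Arg1 and Nos2, often used as signs of opposed macrophage states, were called in no comparison. Arg1 read 730, 354 and 275 CPM in control, 411, 776 and 539 in curcumin, 262, 359 and 224 in swimming and 318, 313 and 337 in combination. Control spanned nearly the whole range of Arg1, and the averaged effect of swimming was -0.76 ± 0.24 (adjusted p = 0.12). Nos2 averaged 120.3 ± 54.0 CPM in control and 266.2 ± 91.9 in curcumin, with 193.1 ± 69.6 in swimming and 178.7 ± 10.7 in combination (SD, n = 3). Both enzymes peaked in curcumin 2, at 776 and 360 CPM.

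A further list of 93 phagocyte genes in the table, covering receptors, oxidase, lysosome, lipid handling, chemokines and Fc receptor signalling, had 90 tested. In combination against curcumin 2 of the 90 fell, beside 0.491% of all genes tested. They were the growth factor receptor chain Csf2ra at -0.77, and Psap, the precursor of lysosomal saposins, at -0.75. Csf2ra averaged 57.7 ± 5.41 CPM in curcumin and 33.9 ± 1.69 in combination (SD, n = 3). Psap, the cathepsin Ctsd at -0.79 and the monocyte chemokine Ccl12 at -1.51 were the 3 that fell in combination against control. Of all genes tested, 2.43% fell there. Against swimming, combination had 4 lower, Lrp1, Siglec1, Csf2ra and Mgl2, the last at -2.0, while 3.15% of all genes tested fell. The fatty acid carrier Fabp4 was the 1 higher, at 1.21, while 3.5% of all genes tested rose. Fabp4 also stands on the adipocyte list.

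Swimming against curcumin had 3 of the 90 lower, while 0.902% of all genes tested fell. The sterol sensor Nr1h3 stood at -1.48, the cholesterol exporter Abcg1 at -1.37 and the monocyte chemokine receptor Ccr2 at -1.47. The myeloid factor Runx1 rose by 0.38 and Spp1, osteopontin, by 0.70, while 0.88% of all genes tested rose. Averaged over curcumin, Ctsd fell with swimming and Runx1 rose, while 1.09% of all genes tested fell and 0.946% rose. Averaged over swimming, 5 of the 90 fell with curcumin, Lrp1, Spp1, Ctsl, Plcg2 and Mgl2, while 3.34% of all genes tested fell. In the interaction edgeR called 0 of the 90, with 16 at an unadjusted p under 0.05, while DESeq2 called 2 and limma voom 0. Of all 13638 genes, 1500 had an unadjusted p under 0.05 there, and DESeq2 called 217. EdgeR also called 0 of the 90 in either single treatment against control. An unadjusted p under 0.05 was held by 8 in curcumin and 13 in swimming, beside 1490 and 1770 of all 13638 genes. DESeq2 called 1 and 3 of the 90, beside 87 and 318 of all genes, and limma voom 0 of the 90. All 22 calls of these genes were lost without any 1 combination library, 21 without swimming 1, 18 without curcumin 3, 14 without swimming 3, 12 without curcumin 2, 11 without curcumin 1, 8 without control 3, 7 without swimming 2 and 4 without control 2. The median of the 90 in combination against curcumin was -0.38, beside -0.70 for the members.

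Markers of other cells moved alongside some of these results, and their part in them was not tested. The neutrophil list, as a mean of centred log2 CPM, ran from -0.95 to -0.91 in combination and from 0.54 to 0.68 in swimming, with -0.32 to 0.59 in curcumin and -0.41 to 1.19 in control. Its summed level was 760.9 to 790.5 CPM in combination, 891 to 935.7 in swimming, 930.4 to 1073 in curcumin and 782 to 1143 in control, most of it Padi4 and Mmp9. The neutrophil gene S100a8 ranged from 1.33 to 20.9 CPM, and Ly6g had 0 counts in 2 libraries. Of 10 tested neutrophil markers, 3 fell in combination against control, 4 in combination against swimming and 0 in combination against curcumin, where their median was -1.52. In swimming against curcumin, where Trem2, C3ar1 and 4 other members fell, the median of the neutrophil markers was 0.42.

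Markers of T cells, NK cells, B cells, dendritic cells and adipocytes were read in the same way. The T cell list ran from -0.17 to 0.92 in curcumin and from -0.25 to -0.06 in combination, and it reached -1.83 in swimming, in the same library, swimming 2, that was lowest for 13 members. Summed T cell markers were 84.5 to 153 CPM in curcumin, 69.1 to 75.7 in combination, 23 to 122.2 in swimming and 54.6 to 124 in control. Dendritic cell markers ran from 0.00 to 0.75 in curcumin and from -0.53 to -0.43 in combination, with 17.3 to 17.8 summed CPM in combination and 24.4 to 29.7 in curcumin. They ran from -1.05 to 0.64 in swimming and from -0.04 to 0.63 in control. Of their 8 genes, Siglech had 0 counts in 3 libraries, and Xcr1 and Cd209a in 1 each. The adipocyte list lay between 1.25 and 1.51 in combination and reached at most 0.57 elsewhere, though apart from Fabp4 its genes stayed at or below 4.06 CPM and Lep was at 0 counts in 11 libraries.

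Vessel, stromal, muscle and cell cycle markers were read as well, and their part in the results was not tested. Endothelial markers summed to 409.8 to 469.6 CPM in combination, 133.9 to 225.5 in swimming, 273.4 to 283.8 in curcumin and 261.8 to 379.8 in control. Of 8 tested, 3 fell in swimming against curcumin (median -0.63) and 6 rose in combination against swimming (median 1.29). Fibroblast markers had 0 of 8 positive values in swimming against curcumin (median -0.85), with none called. Skeletal muscle markers summed to 19.7 to 141.7 CPM in swimming, 57.2 to 62.6 in combination, 274.6 to 366.4 in curcumin and 10 to 363.2 in control. Of 7 tested, 1 fell in swimming against curcumin (median -1.91) and 2 when swimming was averaged (median -1.45). Cell cycle markers summed to 1942 to 2029 CPM in combination, 1594 to 1696 in curcumin, 895.7 to 1575 in swimming and 536.7 to 1698 in control, where control 2 was lowest.

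**Figure D5:**
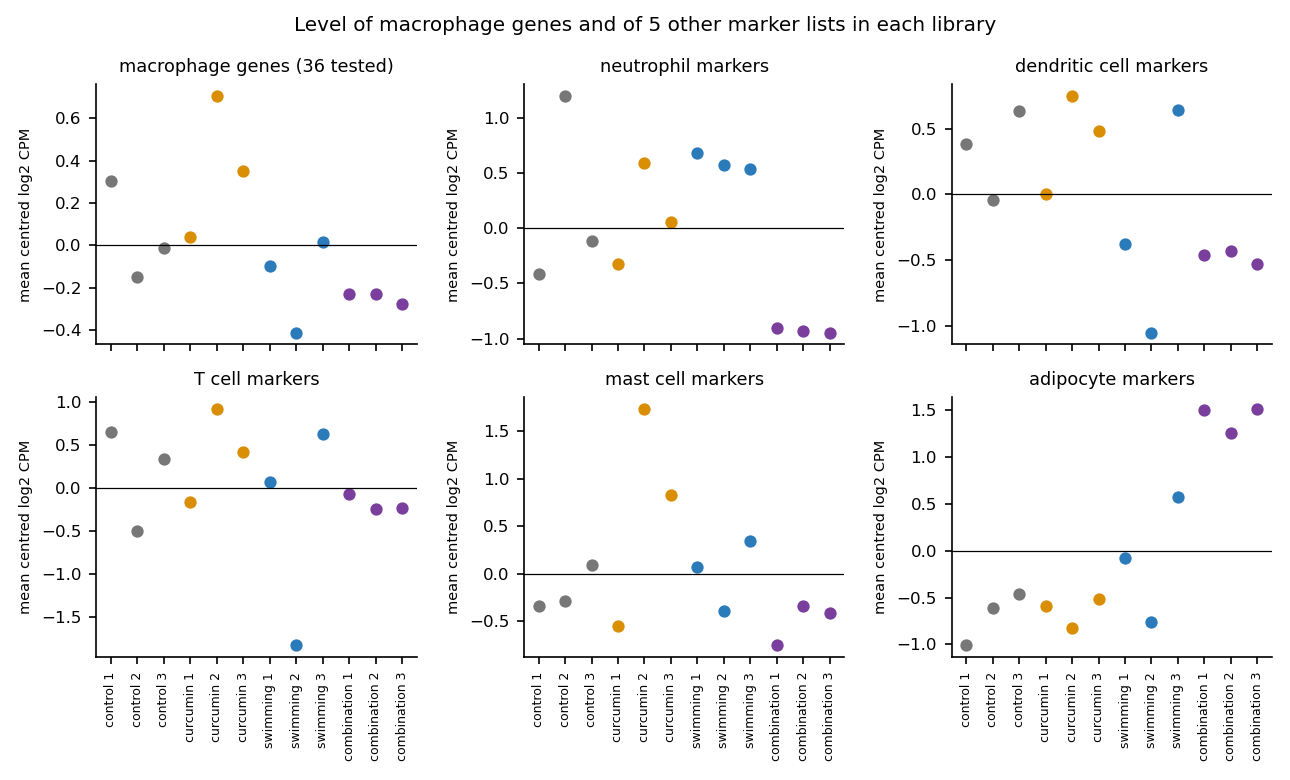
Mean centred log2 CPM of the 36 members and of marker lists of neutrophils, dendritic cells, T cells, mast cells and adipocytes in each library (points, by group). The members and the mast cell markers are highest in curcumin 2 and 3, though apart from Kit the mast cell genes stayed at or below 6.80 CPM. T cell markers are highest in curcumin 2, but higher in control 1 and swimming 3 than in curcumin 3. Neutrophil markers are lowest in all 3 combination libraries.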

How the data were processed

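Whole tumours were sequenced in 12 libraries, 4 groups of 3, and groups were taken from the sample titles. The authors deposited a table of whole read counts and FPKM values per gene. Per the labels' protocols, reads were trimmed, aligned with HISAT2 2.0.5 to mm9 and counted with HTSeq 0.9.1, and FPKM was made from the counts. The submitters' processing notes also name TopHat2, cutadapt, DESeq 1.30.0 and GRCm39, so the build is stated in 2 ways and gene coordinates are given as the table holds them. Promoters come from RefSeq on GRCm38.p6. All 184877 FPKM values above 0 equalled the count over gene length and library total within 1e-05. No column of values was left unused.

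With TMM scaling, counts entered edgeR 4.0.16 (R 4.3.3; robust quasi-likelihood, filterByExpr with minimum count 10 and total 15), on all 12 libraries with 8 residual degrees of freedom. CPM values are counts relative to the scaled library size. The same comparisons were run with RLE scaling, DESeq2 1.42.0, a replicate block, no filter, limma 3.58.1 voom with a weight per group, only the groups compared, the combination libraries summed and each of 12 libraries left out. The pipeline was tested on simulated data drawn with the same spread per gene in every group. The real groups spread unequally, so that test cannot show how the fit behaves on them. Levels of marker lists are means of centred log2 CPM with a prior count of 2.

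The members and all lists were chosen with earlier results of these data known. Values per library are given for members called at least once and, for a role without a call, for the member of smallest p when swimming was averaged. From the other pathway genes at most 4 per role and comparison were named. A few genes of that list are not reported here and were left out of its counts. Floors of 3 counts cover counting error only.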

Additional observations from a re-analysis of the deposited data

Results flagged for a closer look

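For 2 genes the interaction term of the edgeR fit was called, that is, the effect of swimming with curcumin against that without it. Itgb2 gave -1.282 ± 0.20 (log2, adjusted p = 0.026): swimming minus control was 0.39 and combination minus curcumin was -0.89. Dok2 gave -1.298 ± 0.22 (adjusted p = 0.038), with 0.20 and -1.10 for the same 2 effects. With 1 library left out, the Itgb2 call held in 5 of 12 fits and the Dok2 call in 4. Both calls were lost with the replicate block and with the combination libraries summed. Of 10 tested neutrophil markers, 1 had a positive interaction value, 0 were called and the median was -1.35. Their part in these results was not tested.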

How the results depend on the processing

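Counts of members called depended on the fit, while none of the called genes named changed sign in any setting. DESeq2 called 2 members in curcumin against control, 2 in swimming against control, 6 in combination against control, 21 in combination against curcumin, 12 in swimming against curcumin, 20 for swimming averaged, 1 for curcumin averaged and 7 in the interaction. Over all 13638 genes, DESeq2 called 87, 318, 1656, 700, 1032, 952, 1989 and 217 in the same order. RLE scaling gave 1 in combination against control, and no filter gave 1 there and 4 in the interaction. Limma voom gave 0 in swimming against control and combination against control, 23 in combination against curcumin, 8 in combination against swimming and 11 in swimming against curcumin. Fitting only the groups compared gave 0, 0, 21 and 7 in the first 4 of these comparisons. Over all genes, limma voom called 0, 403, 1933, 2797 and 907 in that order. The fits of only the groups compared called 0, 132, 2121 and 2707. Summing the combination libraries left 0 in each of its 3 comparisons, for swimming averaged and in the interaction, the last 2 added after seeing the data, and it leaves fewer samples. Over all 14155 genes tested it also called 0 in each of these. Leaving out 1 library gave 0 to 0 calls in curcumin against control, 0 to 4 in swimming against control, 0 to 4 in combination against control, 0 to 16 in combination against curcumin, 0 to 7 in combination against swimming, 0 to 13 in swimming against curcumin, 0 to 16 for swimming averaged, 0 to 2 for curcumin averaged and 0 to 7 in the interaction. Calls over all genes also shifted when a library was left out, as given above with the losses. The cause of these shifts was not tested. With 1 library left out, members with a negative value numbered 30 to 33 in combination against curcumin, 32 to 33 for swimming averaged and 31 to 33 in swimming against curcumin, with wider ranges of 27 to 33 in combination against control, 25 to 30 in the interaction, 20 to 28 in swimming against control, 18 to 26 in combination against swimming, 9 to 19 for curcumin averaged and 2 to 10 in curcumin against control. Over all genes, calls in combination against curcumin were 116, against 700 with DESeq2, 1933 with limma voom, 2121 with only those groups and 0 with summed libraries.

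Of 18 same-number pairs of libraries, 2 had deviations correlated above 0.1 (range -0.25 to 0.16). Pairs of different number also passed 0.1, up to 0.23 for control 1 with curcumin 2. This check cannot decide whether replicate numbers pair the samples. With the replicate block, members called were 0 in swimming against control, 0 in combination against control, 4 in combination against curcumin, 3 in combination against swimming, 1 in swimming against curcumin, 2 for swimming averaged and 0 in the interaction. Over all 13638 genes this fit called 4, 220, 28, 496, 57, 52 and 11 in the same order.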
